A study of Mus musculus with 2 samples.

Results

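Mir140 and Mir455 are microRNA genes widely studied in cartilage, and both were well above the median microRNA gene in the intestine of the mouse embryo, at means of 2257 and 2723 CPM. CPM are counts on the gene's strand scaled to a library total of 1000000. Both genes were chosen by name, with their counts in these libraries already known, so their levels are given as a description and carry no test against other genes. They make up 2 of the 1973 genes counted in the series and 2 of the 363 detected, that is, with at least 10 counts in both libraries. The samples form a single group: intestine of B6NCrl embryos at 14.5 days of development, with no treatment named, in 2 biological replicates. Tissue for replicate 1 was taken on day 17 of the month and that for replicate 2 on day 15, so collection day and replicate cannot be told apart. The labels call each sample one intestine of a single pup but give its sex as male and female pooled, and no value here settles this. Both also bear the same pup and mother numbers. The words biological replicate and the different days at the same stated age go with separate animals, but the labels conflict. Every SD below may thus not be an SD between animals. Cartilage and other tissues were not analysed here, so how the intestine compares with cartilage was not measured.

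A microRNA is cut from a hairpin precursor and guides the repression of messenger RNAs that pair with its seed, bases 2 to 8 from the 5′ end. miR-140 and miR-455 are known from chondrocytes, where the transcription factor SOX9, the master regulator of cartilage, promotes the expression of both. Mice without miR-140 have short bones and a misshapen skull, and miR-140 is known to repress the aggrecan-cutting protease gene Adamts5 and the histone deacetylase gene Hdac4. miR-455 is known from chondrocyte differentiation and from TGF-beta signalling.

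Each gene lies inside a protein-coding gene on the same strand. Mir140 (ENSMUSG00000065439.1; GRCm38 chromosome 8, 107551244 to 107551313, plus strand) lies in Wwp2, which encodes a ubiquitin ligase. It occupies intron 16 of the longest annotated isoform and starts 1109 bases after the end of the exon before it. A short coding isoform of Wwp2 starts 6232 bases before Mir140, while the full-length isoform starts 114879 bases before it. The annotation also holds a single-exon retained-intron transcript that covers the place of Mir140. Mir455 (ENSMUSG00000070102.1; chromosome 4, 63256851 to 63256932, plus strand) lies in intron 10 of Col27a1, a fibrillar collagen gene of cartilage. That intron is 2318 bases long, and Mir455 sits near its end, 128 bases before the next exon. No other annotated small RNA gene lies within 100 kb of either. The transcripts of Wwp2 and Col27a1 were not measured in these small RNA libraries.

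**Figure D1:**
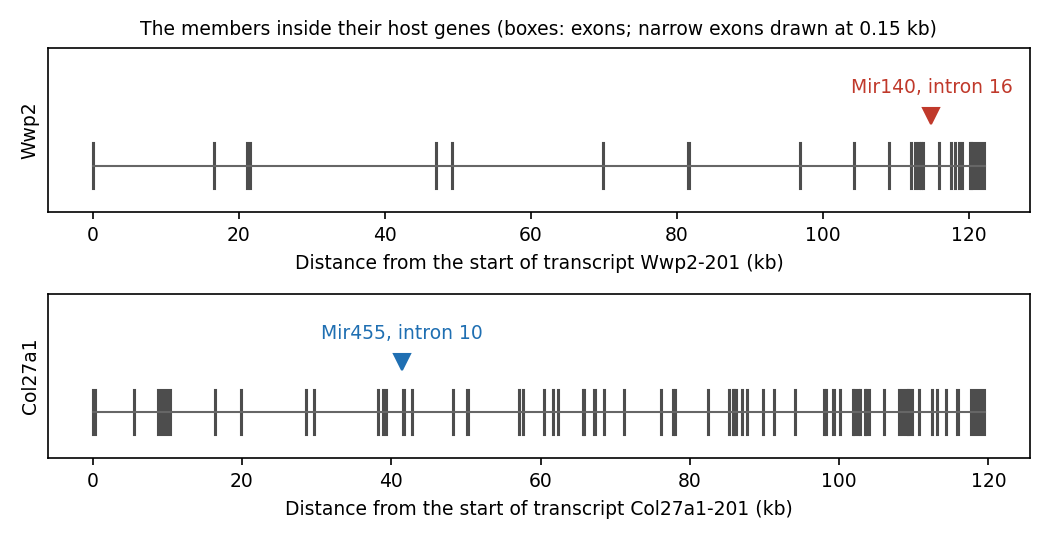
Exons (boxes) of the longest Wwp2 isoform and of the full-length coding isoform of Col27a1 against the distance in kb from the start of each transcript, with a triangle at the microRNA gene. Mir140 lies in intron 16, toward the end of Wwp2, and Mir455 in intron 10, in the first part of Col27a1.

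The mature sequences are shown because they define which messages each microRNA can pair with and whether its reads could be confused with those of another gene. They come from RefSeq (build GRCm38.p6), are written 5′ to 3′ and have the seed in capitals; miR-140-5p is named only.

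mmu-miR-140-3p: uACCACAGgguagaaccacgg

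mmu-miR-455-5p: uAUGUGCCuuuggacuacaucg

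mmu-miR-455-3p: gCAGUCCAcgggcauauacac

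The 3 sequences have 3 different seeds. The longest stretch of bases that any 2 of them share is 6 bases, between miR-140-3p and miR-455-3p. miR-140-3p is 21 bases long and 57.1% G or C, miR-455-5p 22 bases and 45.5%, and miR-455-3p 21 bases and 57.1%. The hairpin of Mir140 is printed to show where its 3p arm lies, in capitals, from base 45 to base 65 of 70.

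Mir140 hairpin: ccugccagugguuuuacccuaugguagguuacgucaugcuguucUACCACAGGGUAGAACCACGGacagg

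In the annotated Mir455 gene, miR-455-5p takes bases 17 to 38 and miR-455-3p bases 54 to 74 of 82. The counts are kept per gene and not per arm, so how the reads of either gene divide between its 5p and 3p arms was not measured. Neither hairpin holds a stretch of 20 bases found in a microRNA hairpin elsewhere in the genome, in either orientation. Levels of many microRNAs with near-identical copies are uncertain in these tables, because a read that aligned in several places was counted for no gene; Mir140 and Mir455 have no such copy among the annotated hairpins.

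The seed of miR-455-3p occurs in no other mature mouse microRNA of the RefSeq table, and the seeds of the others occur once more each. An unshared seed is common: 1245 of the 1738 entries, or 71.6%, have one. The other bearer of the miR-140-3p seed is miR-497b, and the other bearer of the miR-455-5p seed is miR-5129-3p, as the capitals show.

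mmu-miR-497b: cACCACAGugugguuuggacgugg

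mmu-miR-5129-3p: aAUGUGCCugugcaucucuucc

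Both genes had almost no counts on their own strand. Mir497b (chromosome 11, minus strand) had 1 count in replicate 1 and 0 in replicate 2, which allows up to 0.769 CPM there. Mir5129 (chromosome 2, in an exon of Zeb2) had 3 counts and 1 count. Counts of Mir140 and Mir455 thus far exceeded those of the other bearers of these seeds, although the arm the reads came from is not known. Mir497b had 7303 and 2128 counts on its opposite strand, where the annotation places Mir497, which has other seeds.

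Mir455 was the more abundant of the pair in both libraries. It had 40046 counts in replicate 1 and 10898 in replicate 2, or 2654 CPM (95% Wilson interval 2628 to 2680) and 2792 CPM (2740 to 2845). Mir140 had 32813 and 9132 counts, or 2174 CPM (2151 to 2198) and 2339 CPM (2292 to 2388). The means were 2723 ± 97.6 CPM for Mir455 and 2257 ± 117 CPM for Mir140 (SD, n = 2), and the 2 genes' ranges did not overlap. Neither gene had a single count on the opposite strand in either library. Intervals cover counting error only, since the tables record no molecular identifiers and PCR copies count as reads. In a whole tissue, fewer cells of a type and less RNA per cell cannot be told apart.

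The ratio of the pair was nearly the same in both libraries. Mir455 exceeded Mir140 1.22-fold in replicate 1 (exact 95% counting interval 1.20 to 1.24) and 1.19-fold in replicate 2 (1.16 to 1.23). On the log2 scale, Mir140 over Mir455 was -0.29 and -0.26, a mean of -0.27 ± 0.02 (SD, n = 2). The change in this ratio from replicate 1 to replicate 2 was 0.03, with a 95% interval of -0.013 to 0.078 that includes no change. This ratio does not depend on how the libraries are scaled. It compares counts, and ligation and PCR may favour one small RNA sequence over another, so it is no ratio of molecules. Together the 2 genes held 0.483% of the counts in replicate 1 and 0.513% in replicate 2.

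By mean level Mir455 ranked 63rd and Mir140 70th of the 1973 genes. Mir455 held rank 63 in each library, and Mir140 ranks 69 and 71. Mir455 lay above 82.6% of the detected genes and Mir140 above 80.7%, at 21.1 and 17.5 times their median of 129 CPM. Mir143, the smooth muscle microRNA that led the profile at 157004 CPM, exceeded them 57.7-fold and 69.6-fold. A total of 6 detected genes lay between the members.

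**Figure D2:**
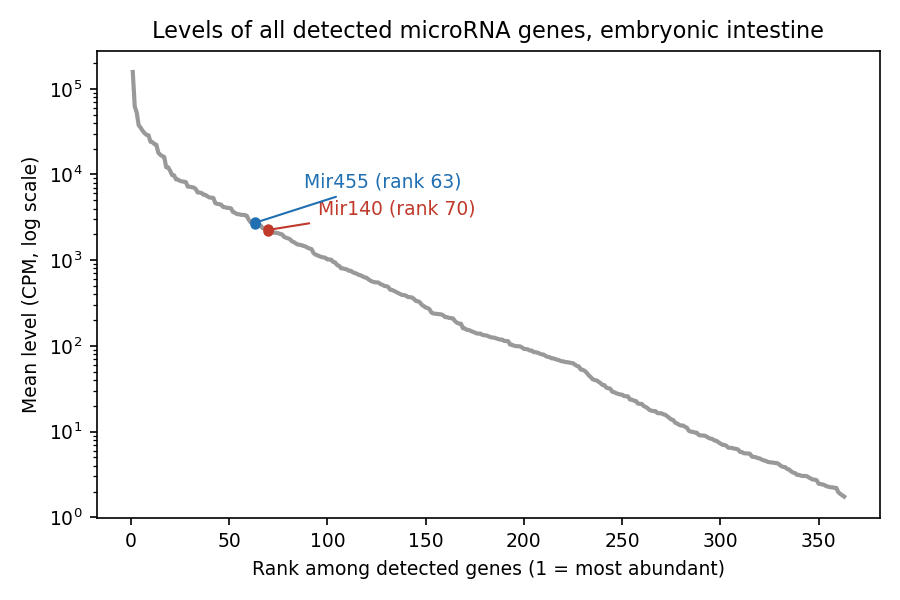
Mean level in CPM (log scale) of the 363 detected genes against their rank, with the values of Mir455 and Mir140 in each library as points. The members lie at ranks 63 and 70, between 2174 and 2792 CPM.

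The order around the members held in both libraries for some of the nearest genes only. For Mir455, the genes just above were Mir708 (2757 ± 0.411 CPM) and Mir381 (2764 ± 125 CPM), and the gene just below was Mir15a (2610 ± 137 CPM). The ranges of all 3 overlapped or lay within the range of Mir455. Within each library, however, Mir381 (2676 and 2853 CPM) lay above Mir455 and Mir15a (2513 and 2707 CPM) below it. Mir708 lay above Mir455 in replicate 1 and below it in replicate 2. For Mir140, the gene just above was Mir425 (2271 ± 151 CPM) and the gene just below Mir22 (2186 ± 239 CPM), and both ranges overlapped that of Mir140. Both genes lay below Mir140 in replicate 1 and above it in replicate 2. Mir183 (2558 ± 80.5 CPM), which ranked between the members, overlapped neither of them.

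The genes whose 2 values lay closest to those of a member were found by the distance between pairs of log2 CPM, over 2 libraries. For Mir140 these were Mir425 (distance 0.025), Mir137 (0.092), Mir22 (0.109), Mir361 (0.112) and Mir483 (0.183). For Mir455 they were Mir381 (0.033), Mir708 (0.058), Mir15a (0.090), Mir183 (0.127) and Mir149 (0.182). With 2 points a gene this is likeness of level and little else. Of these 10 genes, Mir361, Mir483, Mir708 and Mir149 also lie in introns of coding genes on the same strand. Mir708 shares sequence with another hairpin, so its level is uncertain.

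Lying in the intron of a coding gene is common among detected microRNA genes and did not go with a high level in general. Of the 363 detected genes, 142 lie there on the host's strand, with a median of 97.5 CPM, against 154 CPM for the other 221. Mir455 ranked 23rd and Mir140 26th among the 142. They stood above 83.8% and 81.7% of them. The intronic genes led by Mir335 of Mest (52828 ± 2999 CPM) reached far higher levels, so the pair belongs to the upper part of this class without leading it.

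Other microRNAs studied in cartilage ranged widely in level in the same libraries, from 2.20 CPM (Mir365-2) to 3582 CPM (Mir145a) among those detected. A list of 24 such genes was drawn up, 23 were counted and 19 were detected, and the pair made up 29.9% and 31.0% of the list's counts in replicates 1 and 2. The list as a whole held 1.64 ± 0.0287% of all counts (SD, n = 2). Of the 23 genes, 11 share sequence with another hairpin and may be too low; without them the share was 1.37%.

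By mean level within that list, Mir145a alone stood above Mir455, and Mir27b stood between the members. In replicate 2, however, Mir27b lay below Mir140 and Mir22 above it. Mir145a, which is known to target Sox9 and is also known from smooth muscle, was highest at 3567 and 3597 CPM. Mir27b, which shares sequence with Mir27a, had 2511 and 2189 CPM. Mir22 had 2017 and 2355 CPM, and Mir337, of the imprinted Dlk1-Dio3 region, had 1768 and 1887 CPM. These 6 genes stood apart from the rest, the next being Mir221 at 545 and 456 CPM.

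Other genes of the list were far lower. Mir675, cut from the H19 transcript and known from type II collagen expression in chondrocytes, had 167 and 152 CPM, from 2527 and 595 counts. Mir1247, known to repress Sox9, had 29.0 and 35.1 CPM. Mir365-2, known from mechanical stimulation of chondrocytes, had 1.59 and 2.82 CPM, but Mir365-1 and Mir365-2 share sequence and both may be too low. The median of the 17 detected list genes other than the pair was 114 CPM, against a median of 129 CPM over all detected genes. The middle gene, Mir199a-2, shares sequence with Mir199a-1 and Mir199b and may be too low, as may other list genes that share sequence. Whether the list's median truly lies below that of all detected genes is thus uncertain.

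**Figure D3:**
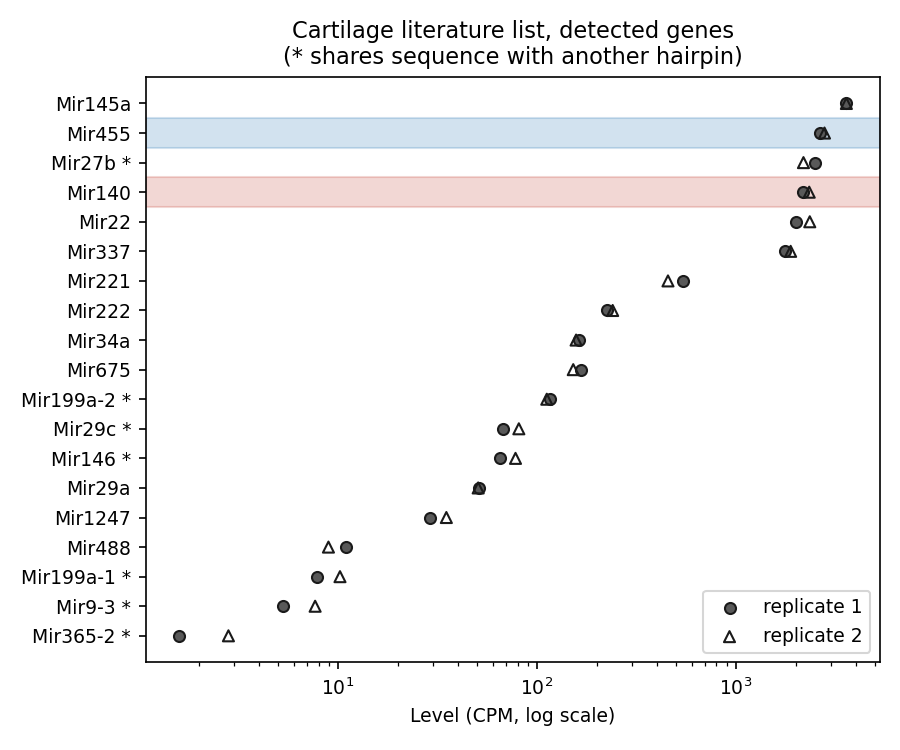
Level in CPM (log scale) of the 19 detected genes of the cartilage literature list, with replicate 1 as filled circles and replicate 2 as open triangles; an asterisk marks shared sequence. The shaded members, at 2174 to 2792 CPM, belong to a top group of 6 genes, while Mir675 lies at 152 and 167 CPM.

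The pair was also set beside marker lists of cell types the sample could hold, which compares summed counts and assigns the pair to none of them. The 4 genes known from intestinal epithelium, Mir192, Mir194-1, Mir194-2 and Mir215, were all detected and summed to 8980 and 11362 CPM, so markers of the labelled tissue were present. The pair's sum of 4828 and 5131 CPM was 2.03 times lower than that of the epithelial list (log2 ratio -1.02 ± 0.18). The mesenchymal genes of the miR-199 and miR-214 group summed to 9708 and 11205 CPM, 2.10 times the pair (log2 ratio of the pair to them -1.07 ± 0.08). Most of that sum was Mir214, with a mean of 9835 CPM. Mir199a-1, Mir199a-2 and Mir199b had means of 9.03, 114 and 498 CPM, each lower as counted than either member of the pair. These 3 genes share sequence with one another, so the level of each may be too low. Of the epithelial list 2 of 4 genes share sequence and of the mesenchymal list 3 of 4, so both sums may be too low and lie further above the pair than counted. The smooth muscle list exceeded the pair 32.2-fold, which is almost wholly Mir143; its other gene, Mir145a, had 3582 CPM, less than the pair's sum of 4980 CPM. Striated muscle genes summed to 33.2 and 31.8 CPM, so the pair exceeded them 153-fold. Of 8 striated muscle genes counted, 3 were detected, and Mir133a-1 was at 0 in both libraries and Mir133a-2 in replicate 2. Another gene of that list, Mir1a-2, was not among the genes counted, and 4 of the 8 counted share sequence and may be too low. The 153-fold ratio may thus be too high. Messenger RNA markers of cartilage such as Col2a1, Acan and Sox9 are outside a microRNA table, so whether cartilage or other skeletal tissue contributed to the samples was not tested.

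Both members were slightly higher in replicate 2, by less than most detected genes differed. Mir140 was 1.08-fold higher (log2 difference 0.11, 95% counting interval 0.07 to 0.14; adjusted p = 3.63e-09 by the exact binomial test). Mir455 was 1.05-fold higher (log2 difference 0.07, interval 0.04 to 0.10; adjusted p = 1.12e-05 by the exact binomial test). The test asked whether a gene's counts divided between the libraries as their totals did, with p-values adjusted by Benjamini-Hochberg across the 363 detected genes and a threshold of 0.05. It compares these 2 libraries and no condition. Both members passed it, as did 43.8% of the detected genes and 88.2% of the 102 detected genes with a mean of at least 1000 CPM. At the members' depth the test calls very small differences. Of the detected genes, 37.2% differed less than Mir140 and 27.3% less than Mir455, whose absolute differences lie below the median of 0.15. Among the 102 genes with a mean of at least 1000 CPM, that median was 0.119, close to the difference of Mir140.

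That both genes passed, and the sign for Mir455, rest on the scaling. When the libraries were scaled by TMM, which centres on the bulk of the genes, the differences were 0.023 for Mir140 (interval -0.011 to 0.056; adjusted p = 0.304 by the exact binomial test) and -0.0094 for Mir455 (interval -0.040 to 0.021; adjusted p = 0.681 by the exact binomial test). Neither then passed. The median of all detected genes moved with the members, from 0.058 with total counts to -0.025 with TMM, and the share of calls that were higher in replicate 2 went from 67.9% to 40.8%, and to 37.5% with median-of-ratios scaling. Relative to that median Mir140 stood 0.048 and Mir455 0.015 higher, a distance that no scaling of whole libraries can change. The list showed a mix near that of all detected genes. Of its 19 detected genes, 6 passed the test as higher in replicate 2, the pair included. As lower, 2 passed (Mir221 and Mir27b), and 11 did not pass. Over all detected genes, 29.8% passed as higher and 14.0% as lower. The list's median log2 difference was 0.091 against 0.058 over all detected genes. Those directions too were read with total counts.

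**Figure D4:**
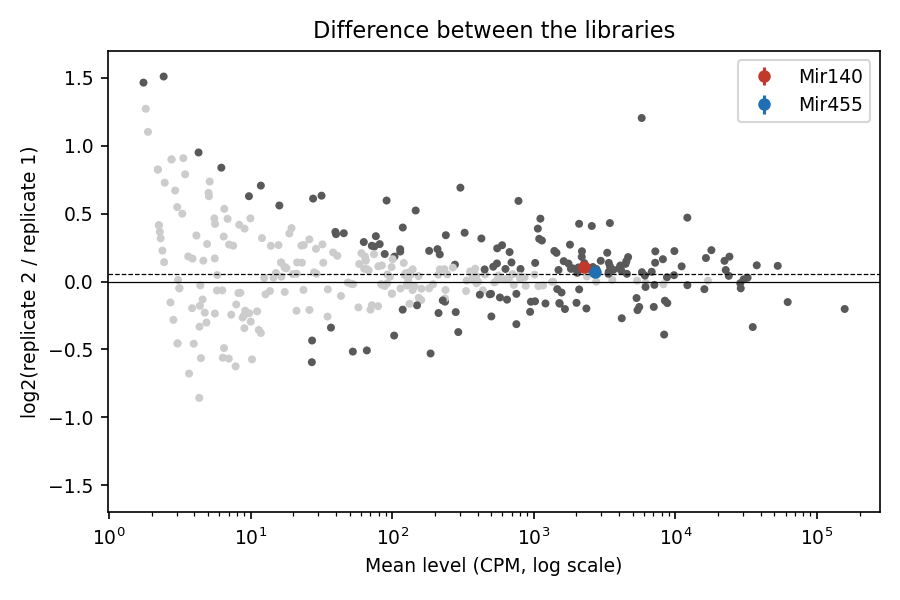
Log2 difference of replicate 2 over replicate 1 against mean CPM (log scale) for the detected genes, dark where the adjusted p is under 0.05, with the members' 95% counting intervals. Mir140 (0.11) and Mir455 (0.07) lie near the dashed median of 0.058; 3 genes fall outside the axis limits of 1.7.

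**Figure D5:**
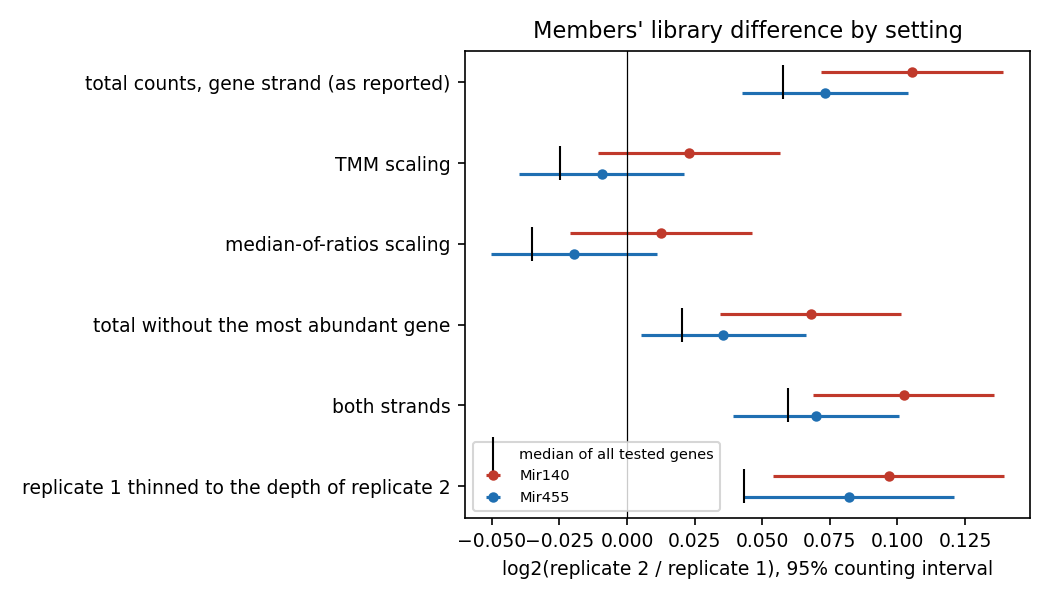
Log2 difference of each member with its 95% counting interval under 6 settings, beside the median of all tested genes (vertical bars). The point of Mir140 stays to the right of 0 in every setting drawn, and that of Mir455 falls just to the left under TMM and median-of-ratios scaling. Under these 2 scalings the intervals of both members include 0. The distance to the median is fixed in the 4 settings that change only the scaling.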

How the data were processed

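Small RNA libraries (inserts under 30 bases, per the labels) from 2 intestines were deposited as whole-number counts per gene. Per the files that accompany the tables, reads were aligned to mm10 and counted on GENCODE M4. The aligner and the counting program are not given in the sources used here. The deposited columns hold counts of both strands, of the gene's own and of the other, a reading that rests on the values. Reads with several alignments (26.5% and 26.6% of those in the table), unaligned reads (12.4% and 13.8%) and reads on no gene (2.20% and 2.10%) were left out. Gene-strand totals were 15090126 and 3903472; 3 counts equal 0.199 and 0.769 CPM.

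Symbols and coordinates came from GENCODE M21 (GRCm38), which held 1894 of 1973 identifiers, and mature sequences from RefSeq (GRCm38.p6). The exact binomial test (scipy 1.17.1, Python 3.11.15) was tried on data simulated with counting error only, which leaves out any further spread between libraries. TMM came from edgeR 4.0.16. The named genes are the members, the list genes, genes sharing a seed and the 5 genes closest to each member; the genes next in rank and Mir335 were named after their values were seen. The members and lists were chosen with earlier results of these data known. Alternatives covered scaling, strand, depth, count minimum, sequence sharing and each library alone.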

Additional observations from a re-analysis of the deposited data

Results flagged for a closer look

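Counts on the opposite strand, which no level above uses, exceeded what a count of 0 allows for 4 named genes. Mir497b had a mean of 515 CPM there, on the strand where the annotation places Mir497, which has other seeds than miR-497b. Mir337 had 5.77 CPM, Mir708 2.11 CPM and Mir183 0.906 CPM. The members had none.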

How the results depend on the processing

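Leaving the most abundant gene, Mir143, out of the totals raised the mean levels to 2676 CPM for Mir140 and 3229 CPM for Mir455. The ranks by mean level moved to 68 for Mir455 and 75 for Mir140 with both strands counted. Without genes that share sequence they were 57 and 62. The library difference of Mir140 no longer passed the exact test under TMM (0.023) or median-of-ratios scaling (0.013). That of Mir455 did not pass without Mir143 in the totals (0.036), and its sign turned under TMM (-0.0094) and median-of-ratios scaling (-0.020). Both remained past the test with both strands counted and with replicate 1 thinned to the depth of replicate 2. The share of the cartilage list was 1.59% with both strands and 1.37% without genes that share sequence. Between 134 and 155 genes passed under other count minimums, with TMM or median-of-ratios scaling and after thinning, against 159 of 363 as reported. The number tested changed with the count minimum. With 1 count in either library 152 of 768 passed, and with 20 counts summed over both 155 of 417. The share that passed was thus lower with these looser minimums. Without Mir143 in the totals 155 passed and with both strands counted 169, both tried after seeing the data. No paired analysis was possible because the series holds 1 group. With 2 libraries of one group, no spread between conditions and no test over samples can be had.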
